A study of Zea mays with 6 samples.

Results

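The 300 most read low-confidence gene models of maize are described here in the young base and the maturing zone of the third leaf. They are the models of the annotation class low_confidence with the highest sum of exon reads over 4 RNA libraries, 300 of 40569 low-confidence models and of 110149 gene features in all. Plants of the inbred line B73 received 16 h of light (130 µmol m-2 s-1) at 25 °C per day, then 8 h of darkness at 20 °C, and were cut 13 to 14 days after they were sown. A 4 cm stretch of lit middle blade stood for the maturing zone, and the bottom 1 to 2 cm of those leaves, out of reach of light, for the base. Poly(A) RNA was sequenced from 2 replicate pools of 6 plants per zone, labelled A and B. The histone marks H3K9ac and H3K4me3 were profiled by chromatin immunoprecipitation and sequencing (ChIP-seq) from pools of 10 plants. All groups were untreated plants of one genotype, and each pool mixed every cell type of its piece of leaf.

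A genome annotation calls a gene model low-confidence when little evidence, such as a conserved protein or a full transcript, backs it. Such models can be real genes, fragments of genes, pseudogenes or remnants of transposable elements. Poly(A) transcripts show that a locus is read, and H3K9ac (histone H3 acetylated at lysine 9) and H3K4me3 (histone H3 with 3 methyl groups at lysine 4) gather around the start sites of transcribed genes, so the marks give a readout of activity that does not depend on transcript counts. A maize leaf grows from its base, where cells divide and expand, whereas cells of the lit blade have finished growing and fix CO2 by the C4 pathway.

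Most low-confidence models had no reads at all: 31143 of 40569 (76.8%) were at 0 in all 4 libraries, and 2621 (6.46%) had enough reads to be tested. The 300 chosen models took 56.2% and 57.2% of all low-confidence reads in base libraries A and B, and 71.1% and 73.5% in maturing zone libraries A and B. They took 1.07% and 0.849% of all exon reads in the base libraries and 1.31% and 0.936% in the maturing zone libraries. The limit of the list fell inside a dense run of models: GRMZM2G445766 (1665 reads) and GRMZM2G396431 (1655 reads) were the last inside, and GRMZM2G435818 (1654 reads) and GRMZM2G019359 (1652 reads) the first outside. None of the 300 identifiers matched the RefSeq gene table of assembly Zm-B73-REFERENCE-NAM-5.0, so no gene name or function stands beside the models. Of all 40569 low-confidence identifiers 6 matched (0.0148%), whereas 18818 of 39313 protein-coding identifiers (47.9%) did. By identifier, 227 begin with GRMZM2G, 66 with GRMZM5G and 7 with AC.

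The libraries held 18325106 to 50657759 exon reads. The zones matched their labels: 5 photosynthesis genes of mesophyll and bundle sheath cells stood 9.71 to 11.93 log2 units higher in the maturing zone, and the replication helicase genes MCM6 and MCM7 stood 8.89 and 8.62 units lower (maturing minus base -8.89 and -8.62). Levels in a library are given as CPM, the reads of a model relative to all reads of its library, with libraries scaled to each other by TMM, a trimmed mean of log ratios. Levels of different models are compared as RPKM, which the authors divided by exon length.

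The chosen models covered a wide range of levels. Their total reads ran from 1655 to 213272 with a median of 3067.5, and their mean RPKM over the 4 libraries ran from 2.49 to 1015 with a median of 15.8. Protein-coding features with at least 1655 reads (12356 features) had a median of 4543.5 reads and 15.1 RPKM. Both lists were cut on reads, so their levels are not independent of that choice. The exon length that reads and RPKM imply had a median of 1358 bp in the models and 2150 bp in those protein-coding features. At least 1 CPM was reached in all 4 libraries by 278 of the 300 models. A further 6 models stayed under 1 CPM in both base libraries and 6 others in both maturing zone libraries. One model, GRMZM2G142891, took 22.0% and 39.1% of the reads of all 300 in maturing zone libraries A and B, against 0.0551% and 0.00681% in the base libraries.

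Transcripts of 49 models (16.3%) rose from base to maturing zone and those of 28 models (9.33%) fell, in edgeR's quasi-likelihood test without pairing of libraries at an adjusted p under 0.05. Over the 26787 features tested, 29.2% were called: 13.5% rose and 15.8% fell. The share of models that rose was thus near the background and the share that fell was below it. The other 223 of the 300 models were not called. Of the 2321 other low-confidence models tested, 9.69% rose and 6.46% fell, and of the 300 most read transposable element features 13% and 9%. Among protein-coding features with at least 1655 reads 15.2% rose and 19.9% fell. The median log2 difference of the 300 (maturing minus base) was 0.13, beside -0.13 over all features tested, and 50% of the models lay between -1.15 and 1.36. With the replicate letter as a block, 124 models rose and 108 fell, beside 35.6% and 40.4% of all features and 76% in either direction. At an adjusted p under 0.01 edgeR without pairing called 0 of the 300 models and 0 of all features, with 116 models and 11664 features at an unadjusted p under 0.05. DESeq2 at an adjusted p under 0.05 called 66 models higher (22%, beside 19.1% of all features tested) and 36 lower (12%, beside 20.2%). The number of falling models went from 28 to 16 (5.33%, beside 10.5% of all features) without maturing zone library B. Scaled by library totals instead of TMM, 30 models rose (10%, beside 9.51% of all features tested) and 69 fell (23%, beside 31%), and the median of all features shifted by -1.14. The p-values rest on 2 libraries per zone. In these whole pieces of leaf, fewer cells of a type and less RNA per cell cannot be told apart.

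The calls by rank are given as a description, because reads from the zone where a model is high also raise its rank. Of the 100 most read models 25 rose and 8 fell, of the next 100, 14 rose and 11 fell, and of the last 100, 10 rose and 9 fell. Over all features tested 13.5% rose and 15.8% fell. Since reads were summed over libraries of unequal depth, a model with many reads in the deep maturing zone library A alone could enter the list. Ranked instead by mean CPM with equal weight for each library, 283 of the 300 models stayed in the list, and 52 rose and 27 fell.

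Without any test, both maturing zone libraries stood above both base libraries in 101 models (33.7%, beside 30.8% of all features tested), and both base libraries stood above in 83 (27.7%, beside 36.9%). In the remaining 116 models the zones overlapped. A difference of at least 1 log2 unit was fitted for 175 models and one within 0.5 of 0 for 71. The authors' deposited table called 47 of the models higher and 24 lower at its FDR under 0.05. These were 15.7% and 8% of the 300, beside 13.1% and 17.1% of the features tested here. Of the 77 models called here, 67 had the same call in the deposited table. Over all features this held for 7075 of 7834.

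The most read model was also the one with the largest fitted rise. GRMZM2G142891 had 261 and 14 reads in base libraries A and B and 145899 and 67098 in the maturing zone, or 3.55, 0.427, 3605 and 6619 CPM. Its zones were far apart, with a log2 difference of 11.31 ± 1.87 (± is the SE throughout, from 2 libraries per zone, edgeR adjusted p = 0.0161). GRMZM2G076136, the second most read, had 953 and 155 reads in the base against 49296 and 2129 in the maturing zone, or 13.0, 4.73, 1218 and 210.0 CPM. It was higher in both maturing zone libraries, but those libraries differed from each other far more than for the first model, and the log2 difference was 6.33 ± 1.27 (edgeR adjusted p = 0.0229). GRMZM2G420001 went from 26 and 1 reads to 17999 and 3457, a log2 difference of 10.86 ± 1.34 (edgeR adjusted p = 0.0130). None of these 3 models was assigned a region of either mark.

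Other models with a large rise carried both marks. GRMZM2G171648 rose from 28 and 8 base reads to 11198 and 6303 reads in the blade (log2 difference 10.45 ± 0.97, edgeR adjusted p = 0.0130). Its strongest H3K9ac region (B73 RefGen_v3 chr5:82362002-82363067) went from an authors' average of 152 normalized reads in the base to 699 in the maturing zone, and the H3K4me3 region over it from 62.2 to 468. A further H3K9ac region of the same model, chr5:82359509-82359999, went from 5.72 to 195. GRMZM2G016004 rose from 14 and 0 base reads to 9407 and 2986 (log2 difference 11.18 ± 1.45, edgeR adjusted p = 0.0132). Its H3K9ac region (chr1:253630124-253630835) was nearly empty in the base and went from 6.12 to 302, and its H3K4me3 region from 1.5 to 42.8. The base level of GRMZM2G422069 rested on 2 reads in library A and 0 in library B, against 1458 and 535 in the maturing zone (edgeR adjusted p = 0.0130). The ratio of its depth-scaled reads was 2094, with a 95% exact interval of 579 to 17306 that covers counting error only. The strongest H3K9ac region of that model (chr9:100029852-100030864) had the highest average of any model with both marks, 1405 in the maturing zone against 75.4 in the base. Its strongest H3K4me3 region went from 27.3 to 549. A second H3K9ac region at chr9:100026870-100027386 went from 32.9 to 776.

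Smaller rises were seen at higher base levels. GRMZM5G829291 stood at 34.0 and 25.9 CPM in the base against 716 and 329 in the maturing zone (4.12 ± 0.73, edgeR adjusted p = 0.0179), and both of its marks were gained. GRMZM2G083472 stood at 37.8 and 33.2 CPM in the base against 406 and 263 in the maturing zone (3.23 ± 0.59, edgeR adjusted p = 0.0186). GRMZM5G888407 stood at 18.3 and 8.93 CPM against 298 and 194 (4.18 ± 0.68, edgeR adjusted p = 0.0158). In these 2 models the strongest H3K9ac region was gained, from 534 to 809 and from 371 to 534, while the strongest H3K4me3 region was not called. A second H3K9ac region of GRMZM5G888407 was not called. A second, weaker H3K4me3 region of GRMZM2G083472 (chr5:58166407-58167133) was gained, from 80.2 to 233. GRMZM5G863454 stood at 27.4 and 38.7 CPM against 319 and 334 (3.30 ± 0.57, edgeR adjusted p = 0.0171), with weak regions of both marks that did not differ by the deposited FDR: 98.6 and 118 for H3K9ac, 77.0 and 88.7 for H3K4me3. GRMZM5G865084 stood at 0.571 and 0.854 CPM against 31.8 and 35.9 (5.58 ± 0.61, edgeR adjusted p = 0.0130) and had no region of either mark.

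Leaving out single libraries moved several of these values by over 1.5-fold, with no change of direction. Without base A the log2 difference became 13.54 for GRMZM2G142891, 7.25 for GRMZM2G076136, 13.46 for GRMZM2G420001, with 1 base read left, and 4.79 for GRMZM5G888407. GRMZM2G016004 and GRMZM2G422069 then had no base read left, so no size is given. Without base B it became 10.46 for GRMZM2G142891, 10.08 for GRMZM2G420001 and 10.38 for GRMZM2G016004. Without maturing zone A it became 4.57 for GRMZM2G076136 and 3.47 for GRMZM5G829291. Without maturing zone B it became 10.72 for GRMZM2G142891, 7.03 for GRMZM2G076136 and 9.69 for GRMZM2G171648. The call of GRMZM5G863454 was lost without base A (edgeR adjusted p = 0.0633), and those of the other models named as rising so far were kept in all 4 cases.

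The largest falls took transcripts to a few reads or none. GRMZM2G174394 had 460 and 1257 reads in base libraries A and B, whereas neither maturing zone library held a read (edgeR adjusted p = 0.0198). With 3 reads over the zone as its floor, the model was at least 272-fold lower there. The H3K9ac region of this model (chr10:134481779-134482446) fell from 559 to 32.9 and its H3K4me3 region from 271 to 60.1. GRMZM5G841195 had 1480 and 261 reads in the base against 2 and 0 in the maturing zone (edgeR adjusted p = 0.0138), a base to maturing zone ratio of 414 with a 95% exact interval of 114 to 3423 for counting error. It carried H3K9ac only, lost from 147 to 96.9. GRMZM2G138548 went from 17.5 and 12.8 CPM to 0.296 and 0, a log2 difference of -6.29 ± 1.15 (edgeR adjusted p = 0.0190), with both marks lost (H3K9ac from 534 to 169).

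GRMZM2G005314, GRMZM2G124603 and GRMZM2G167187 fell without a region of either mark. GRMZM2G005314 stood at 27.0 and 98.8 CPM in the base and at 0.0247 and 0.493 in the maturing zone (-8.42 ± 1.56, edgeR adjusted p = 0.0194). GRMZM2G124603 stood at 23.0 and 57.8 CPM against 0.0988 and 0.493 (-7.38 ± 1.11, edgeR adjusted p = 0.0144). GRMZM2G167187 stood at 37.1 and 111 CPM against 0.296 and 2.86 (-5.65 ± 1.32, edgeR adjusted p = 0.0311). In all 3 models library B was the higher one in both zones.

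GRMZM5G871834 and GRMZM5G880280 are neighbours on chromosome 1 by their mark regions, which lie 3216 bp apart. GRMZM5G871834 stood at 11.2 and 69.0 CPM in the base against 0.173 and 1.68 in the maturing zone (-5.59 ± 1.5, edgeR adjusted p = 0.0433, and 0.0583 with DESeq2 size factors in the edgeR fit). The H3K9ac region of GRMZM5G871834 (chr1:225650712-225652190) fell from 1399, the second highest average among models with both marks, to 161, and its H3K4me3 region from 752 to 242. GRMZM5G880280 stood at 25.5 and 56.7 CPM against 0.395 and 2.27 (-5.04 ± 1.07, edgeR adjusted p = 0.0253), with a weaker H3K9ac region (chr1:225646655-225647257) lost from 148 to 49.3 and no H3K4me3. Whether the pair are parts of 1 transcript was not tested.

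The sizes of the falls depended on single libraries, again with the direction kept. Without base A the log2 difference became -7.59 for GRMZM5G841195, -9.07 for GRMZM2G005314 and -6.38 for GRMZM5G871834. Without base B it became -7.20 for GRMZM2G005314, -6.58 for GRMZM2G124603, -4.68 for GRMZM2G167187, -3.74 for GRMZM5G871834 and -4.38 for GRMZM5G880280. Without maturing zone A it became -6.93 for GRMZM2G005314, -6.30 for GRMZM2G124603, -4.64 for GRMZM2G167187, -4.51 for GRMZM5G871834 and -4.13 for GRMZM5G880280. Without maturing zone B it became -11.18 for GRMZM2G005314, -8.66 for GRMZM2G124603, -7.97 for GRMZM2G167187, -7.84 for GRMZM5G871834 and -6.72 for GRMZM5G880280. No size is given for GRMZM2G174394, nor without maturing zone A for GRMZM5G841195 and GRMZM2G138548, since no maturing zone read is then left. All 8 calls were kept in all 4 cases.

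Among the 12 most read models, 1 fell and 3 were not called. GRMZM2G148870 stood at 148 and 117 CPM in the base against 35.5 and 22.5 in the maturing zone (-2.19 ± 0.53, edgeR adjusted p = 0.0331), while its marks were not called (H3K9ac 470 and 437). That call was lost without base A, maturing zone A or maturing zone B (edgeR adjusted p = 0.110, 0.112 and 0.203). GRMZM5G872800 stood at 206 and 144 CPM against 79.5 and 47.0 (-1.47 ± 0.56, edgeR adjusted p = 0.102, and 0.000333 with the block). The zones of GRMZM5G872800 did not overlap, but the difference passed only with libraries paired or under library totals (-2.59, edgeR adjusted p = 0.0250). GRMZM2G055165 stood at 58.3 and 243 CPM against 164 and 294 (0.61 ± 0.82, edgeR adjusted p = 0.611, and 0.0374 with the block). Its fitted direction changed under library totals (-0.54) and without base A (-0.079). GRMZM2G021077 stood at 104 and 142 CPM against 61.9 and 109 (-0.53 ± 0.54, edgeR adjusted p = 0.497, and 0.0377 with the block). These 4 models carried both marks.

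Libraries A and B differed in a like way in both zones. Across the 300 models the log2 difference of A from B in the base correlated with the same difference in the maturing zone at Pearson's r = 0.902, beside 0.808 across all 26787 features tested; the models are not independent replicates, and their differences share the same 4 libraries. Libraries A and B differed by over 4-fold in 30 models in the base (10%, beside 6.76% of all features) and in 22 models in the maturing zone (7.33%, beside 4.73%). The median difference of A minus B was 0.33 in both zones, beside -0.05 (base) and 0.03 (maturing zone) over all features. The list favours models that are higher in A, because reads were summed and the A libraries are the deeper ones in both zones, so these values are not independent of the choice of models. The labels do not say what the letters stand for, and their part in the zone differences was not tested beyond the fit with a block.

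**Figure D1:**
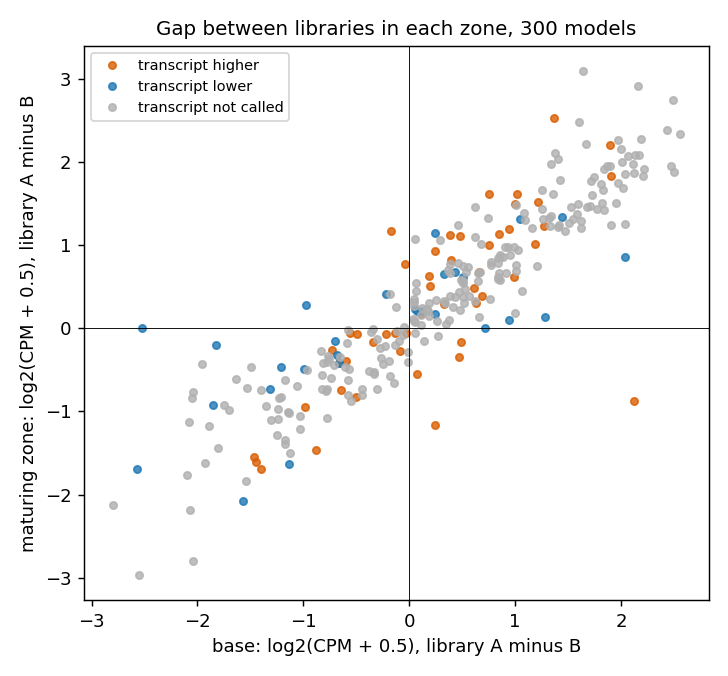
Log2 difference of library A minus library B (TMM-scaled CPM, with 0.5 CPM added) in the base on the x axis and in the maturing zone on the y axis, 1 point per model. The points lie along a rising line, with Pearson's r = 0.902 over 300 models.

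The marks were read from the authors' region lists, in which each region is assigned to a next gene with no distance given. A region of H3K9ac was assigned to 195 of the 300 models (65%) and one of H3K4me3 to 178 (59.3%). Both marks were present at 175 models (58.3%), H3K9ac alone at 20, H3K4me3 alone at 3 and neither at 102 (34%). In all 175 models with both marks, an H3K9ac and an H3K4me3 region overlapped by at least 1 bp. Over all 110149 features 24.7% had both marks and 66.6% neither, and over the 26787 features tested 75.7% and 16.7%. Of all 40569 low-confidence models 10.9% had both marks and 79.0% neither. Of the 2321 other low-confidence models that were tested, with fewer reads, 40.3% had both and 48.1% neither. Protein-coding features with at least 1655 reads had both marks in 88.4% and neither in 7.93%, and the 300 most read transposable element features had both in 68.3% and neither in 27%. These shares are descriptions, and no test of their differences was made.

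**Figure D2:**
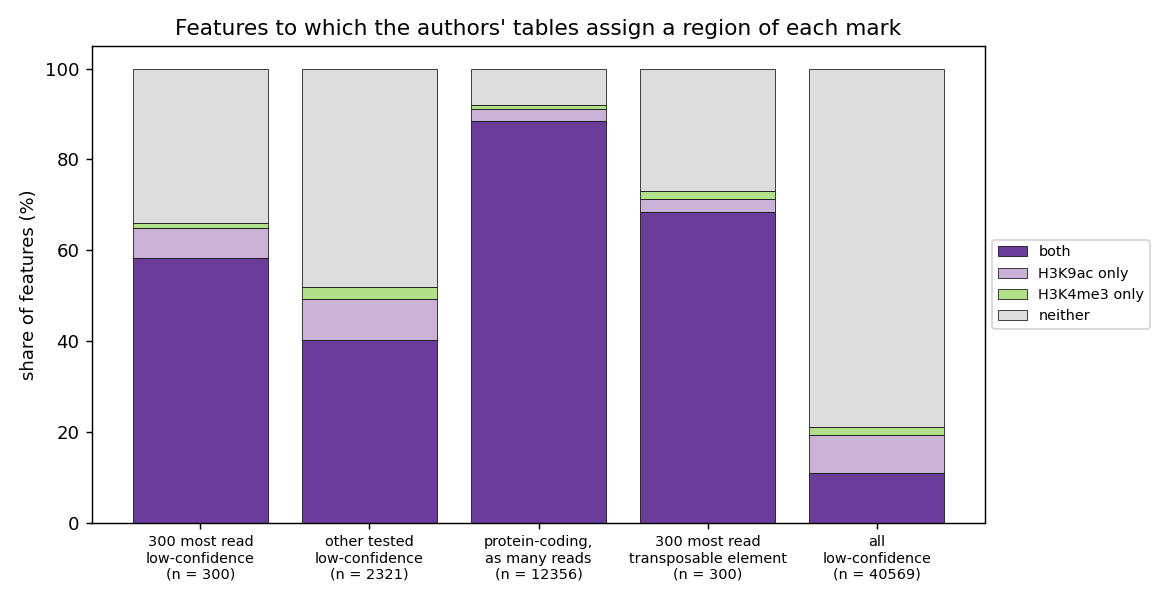
Percent of features with both marks, H3K9ac only, H3K4me3 only or neither, by list. The 300 most read low-confidence models, with both marks in 58.3%, lie between the other tested low-confidence models (40.3%) and protein-coding features with at least as many reads (88.4%). The 300 most read transposable element features (68.3%) reach down to 298 reads.

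Where a mark was present, its median level lay between those of other low-confidence models and well-read protein-coding features. The strongest H3K9ac region of a model, taken as the region with the highest average in either zone, had a median of 461 normalized reads (range 68.2 to 1405), beside 517 for the protein-coding features with at least as many reads and 373 for the other tested low-confidence models. For H3K4me3 the median was 339 (range 28.5 to 1146), beside 363 and 200 respectively. Of the 195 models with H3K9ac, 160 reached the median of all regions of that mark (288), and 126 of 178 did so for H3K4me3 (239). Most models had a single region: 171 had 1, 21 had 2 and 3 had 3 H3K9ac regions, and 168 had 1 and 10 had 2 H3K4me3 regions. The regions were narrow, with median widths of 666.5 bp for H3K9ac and 802 bp for H3K4me3. The 20 models with H3K9ac alone were weaker, with a median of 127 against 492 where both marks were present, and 3 of their 21 H3K9ac regions overlapped an H3K4me3 region that the authors had assigned to another feature.

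The level of a mark did not follow the transcript level among the models that carried it. Spearman's rho between the strongest average and mean RPKM was -0.04 over 195 models for H3K9ac and 0.04 over 178 for H3K4me3. All these models had been chosen for many reads, which narrows the range of levels. By their regions 198 models could be placed: 32 on chromosome 1, 30 on chromosome 2, 28 on chromosome 8, 22 on chromosome 5, 21 on chromosome 6, 20 on chromosome 3, 15 on chromosome 7, 14 on chromosome 9, 12 on chromosome 10 and 4 on chromosome 4.

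Marks differed between zones at a minority of the models that carried them. By the authors' deposited FDR under 0.05, 38 of the 195 models with H3K9ac (19.5%) had a gained region, higher in the maturing zone, and 44 (22.6%) a lost one, with 3 models in both counts. Over all features with an H3K9ac region the shares were 35% and 37.5%. For H3K4me3, 10 of 178 models (5.62%) had a gained region and 8 (4.49%) a lost one, beside 12% and 14.4%. Protein-coding features with at least 1655 reads had H3K9ac gained in 27.99% and lost in 35.7%, and H3K4me3 gained in 8.23% and lost in 13.3%. In the 300 most read transposable element features these shares were 25.2% and 32.7%, and 6.67% and 11.9%. In the 118 of them with at least 1655 reads they were 22.4% and 29.6%, and 6.45% and 14.0%. These differences of shares were not tested.

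Transcript and H3K9ac calls mostly went the same way where both were made. Of the 27 rising models with H3K9ac, the strongest region was gained in 13, lost in 3 and not called in 11. Of the 21 falling models with H3K9ac it was lost in 14, gained in 1 and not called in 6. Over all features with a region, whatever their transcript call, strongest H3K9ac regions were gained in 29.7% and lost in 34.6%. Shares within all rising or all falling features were not worked out for either mark. For H3K4me3 the strongest region was gained in 8 and lost in 1 of 25 rising models, and lost in 4 and gained in 0 of 18 falling models, beside 11.1% gained and 13.1% lost over all features. Among models whose transcripts were not called, 105 of 147 had no H3K9ac call and 131 of 135 no H3K4me3 call. Across models, the log2 zone difference of H3K9ac correlated with that of transcripts at Pearson's r = 0.69 and Spearman's rho = 0.44 (n = 195 models). For H3K4me3 these were 0.64 and 0.51 (n = 178). Among the models that were not called, which have smaller transcript differences by that choice, r was 0.25 and rho 0.21 for H3K9ac (n = 147), and r was 0.21 and rho 0.30 for H3K4me3 (n = 135).

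**Figure D3:**
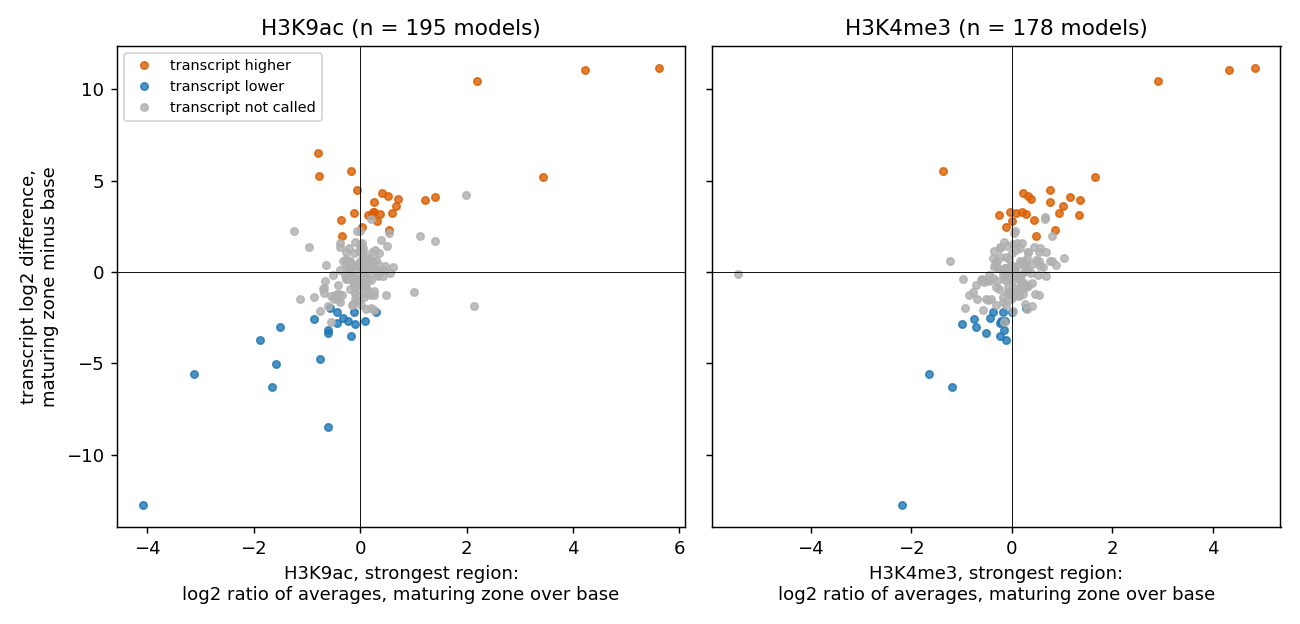
Log2 difference (maturing zone minus base) of transcripts from the edgeR fit against that of the strongest H3K9ac region (left, 195 models) and the strongest H3K4me3 region (right, 178 models), coloured by transcript call. A few models with large differences in both lie at the ends, and most lie near 0 for the mark; a value for a model without reads in a zone is fitted and not a bound.

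A few models stood out in this comparison and were picked after their values were seen. GRMZM2G416725, which rose from 2.58 and 5.61 CPM to 103 and 199 (5.2 ± 0.75, edgeR adjusted p = 0.0139), had 3 gained H3K9ac regions on chromosome 6. Its regions went from 89.9 to 980, from 44.1 to 537 and from 16.1 to 406, and its strongest H3K4me3 region went from 30.0 to 94.3. GRMZM5G802761, a model with H3K4me3 alone, had a region that went from 31.9 in the base to 0.73 in the maturing zone and was called lost. It is a weak region: the median of all H3K4me3 regions, each at its higher zone, was 239. The value of 0.73 is the lowest H3K4me3 average of any region. The transcripts of GRMZM5G802761 stood at 12.9 and 16.5 CPM against 13.4 and 13.5 (-0.13, edgeR adjusted p = 0.867). GRMZM2G001358, with H3K9ac alone, had a region that went from 24.4 to 108 and was called gained. Its transcripts stood lower in both maturing zone libraries, at 34.96 and 20.2 CPM against 9.51 and 5.43 (-1.88 ± 0.59, edgeR adjusted p = 0.0642, and 2.24e-05 with the block).

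Other models held high H3K9ac in both zones. After the 2 models named above, the highest averages belonged to GRMZM2G156844 (1025 in the base against 1235 in the maturing zone), GRMZM2G167924 (1124 and 933), GRMZM2G129098 (977 and 1075) and GRMZM2G115963 (1038 and 1037). None of these 4 regions was called by the deposited FDR. Their transcripts were at modest levels. GRMZM2G156844 stood at 11.4 and 20.5 CPM in the base against 4.89 and 8.48 in the maturing zone (-1.26 ± 0.62, edgeR adjusted p = 0.181, and 0.000410 with the block). GRMZM2G167924 stood at 12.2 and 18.5 CPM against 17.1 and 30.3 (0.62 ± 0.55, edgeR adjusted p = 0.434, and 0.0111 with the block). Library B was the higher one in each zone in these models, as in the next 2. GRMZM2G129098 stood at 7.82 and 11.95 CPM against 12.9 and 20.1 (0.74 ± 0.56, edgeR adjusted p = 0.358, and 0.00503 with the block). GRMZM2G115963 stood at 20.9 and 44.1 CPM against 14.5 and 23.8 (-0.77 ± 0.59, edgeR adjusted p = 0.372, and 0.00559 with the block). For GRMZM2G167924 and GRMZM2G129098 the fitted direction turned under library totals (-0.58 and -0.44).

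All 300 models had been chosen for many reads, so the read levels of the 102 models without a region of either mark are a description. Their median of mean RPKM was 16.9, beside 14.7 for the 175 models with both marks, and 91 of them reached 1 CPM in all 4 libraries. Of the 102, 22 rose (21.6%) and 7 fell (6.86%), with a median log2 difference of 0.39. Of the 175, 25 rose (14.3%) and 18 fell (10.3%), with a median of -0.04. Over all features tested 13.5% rose and 15.8% fell, with a median of -0.13. With the block, 50 and 35 of the 102 models without a mark were called higher and lower (49.0% and 34.3%, beside 35.6% and 40.4% of all features tested). Models with neither mark were more frequent among the 100 most read models (42) than among the next 100 (23) or the last 100 (37). Without a region and without coordinates of the models in the files used here, these 102 could not be placed on the genome. Reads from near-identical copies can be shared between features, and their part in the reads of these models was not tested.

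Besides the 3 most read models without a mark, the rule for naming models took the next 3. GRMZM2G113545 stood at 12.7 and 5.30 CPM in the base against 211 and 105 in the maturing zone (4.13 ± 0.75, edgeR adjusted p = 0.0188), with 4.90 without base A and 3.54 without maturing zone A. GRMZM5G899926 stood at 84.0 and 80.0 CPM against 28.1 and 24.3 (-1.65 ± 0.46, edgeR adjusted p = 0.0465). The replicates of GRMZM5G899926 were close, yet the call was lost when any 1 library was left out (edgeR adjusted p = 0.169 to 0.299) and in DESeq2 (adjusted p = 0.0652). GRMZM2G008645 stood at 56.5 and 29.3 CPM against 86.1 and 43.5 (0.59 ± 0.60, edgeR adjusted p = 0.492, 0.0140 with the block, and a difference of -0.53 under library totals).

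**Figure D4:**
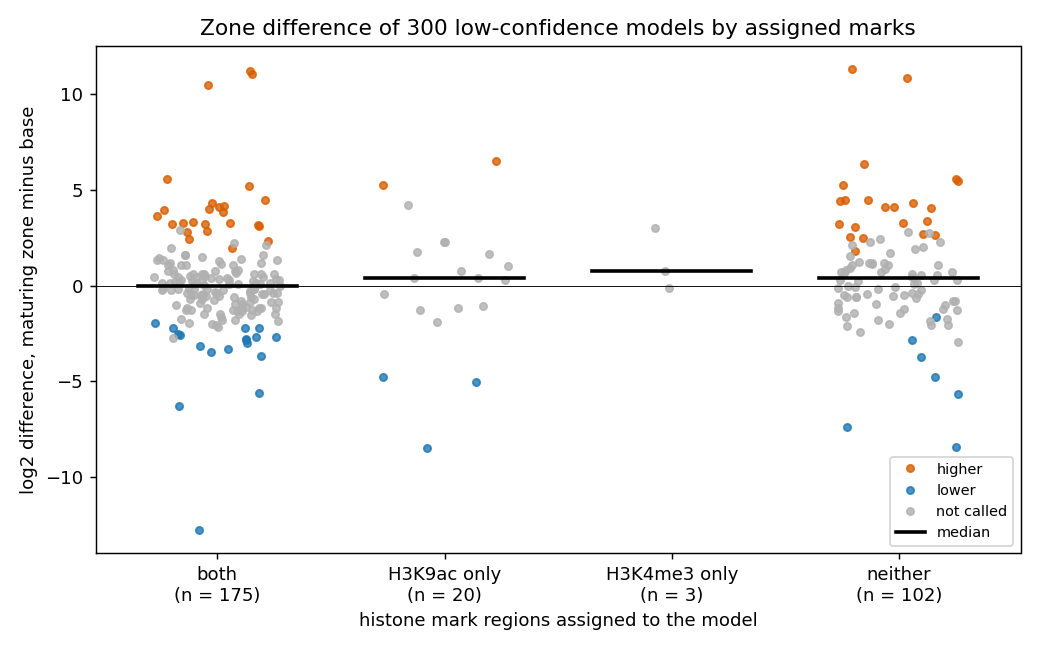
Log2 difference in transcripts (maturing zone minus base, edgeR) of every model, grouped by the marks assigned to it. The 102 models with neither mark have a median of 0.39 and the 175 with both a median of -0.04, and both groups hold models far above and far below 0.

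In 5 models a mark was called in the direction opposite to the transcript. GRMZM5G839738 rose from 2.51 and 2.59 CPM to 122 and 71.2 (5.24 ± 0.59, edgeR adjusted p = 0.0130) while the H3K9ac region assigned to it fell from 426 to 248. GRMZM2G086298 rose from 0.802 and 0.274 CPM to 68.1 and 33.8 (6.52 ± 0.87, edgeR adjusted p = 0.0135, and 7.52 without base A) while H3K9ac fell from 93.9 to 53.9. Neither of these models had H3K4me3. GRMZM2G065598 rose from 1.39 and 0.732 CPM to 58.6 and 41.7 (5.55 ± 0.66, edgeR adjusted p = 0.0130) while H3K4me3 fell from 184 to 71.6. Its H3K9ac region was not called (140 and 125). GRMZM2G333795 rose from 5.21 and 3.60 CPM to 43.4 and 19.9 (2.85 ± 0.63, edgeR adjusted p = 0.0282) while H3K9ac went from 407 to 319 and was called lost. The call of GRMZM2G333795 was lost without base B (2.58, edgeR adjusted p = 0.0750) and without maturing zone A (2.19, edgeR adjusted p = 0.141), and under library totals. GRMZM2G085295 fell from 25.4 and 40.4 CPM to 6.05 and 8.29 (-2.20 ± 0.54, edgeR adjusted p = 0.0352) while H3K9ac went from 407 to 502 and was called gained. The call of GRMZM2G085295 was lost without base B, maturing zone A or maturing zone B (edgeR adjusted p = 0.163, 0.212 and 0.111).

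Some regions lie close to regions of other features, so their assignment to a model is uncertain. Of the 222 H3K9ac regions at the 300 models, 35 (15.8%) had a region of another feature within 2 kb, beside 13.5% of all H3K9ac regions, and so did 19 of 188 H3K4me3 regions (10.1%, beside 8.23%). Besides the pair on chromosome 1, another 2 pairs of models had regions within 10 kb of each other. GRMZM2G001358 and GRMZM2G148870 lie 4267 bp apart on chromosome 8 by their regions, and both had lower fitted levels in the maturing zone (-1.88 and -2.19). GRMZM2G167902 and GRMZM2G167924 lie 1307 bp apart on chromosome 7, and the fitted differences of 0.59 and 0.62 were not called (edgeR adjusted p = 0.363 and 0.434). With the block both were called higher (edgeR adjusted p = 0.0130 and 0.0111).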

How the data were processed

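Transcripts, H3K9ac and H3K4me3 were measured in base and maturing zone. The build B73 RefGen_v3 and the tools edgeR, DiffBind 1.10.0, Trimmomatic 0.32 and CASAVA 1.8.2 are listed in the submitters' processing notes, without roles. Aligner, read counter, peak caller and strandedness: not given in the sources used here. Whole-number counts of exon reads and RPKM computed by the authors make up the RNA table, per the file headers. Its signed fold and FDR-corrected p-value are the authors' own, a fold score never between -1 and 1, per the file headers. The ChIP tables hold the authors' average normalized read signal per region and zone, a signed fold score and an FDR-corrected p-value from edgeR, per the file headers; scaling, replicates and depth behind the averages are not given there. The header's fold is base over maturing zone, but its sign was positive in every region whose maturing zone average was the higher one, so gained means higher in the maturing zone. Coordinates are as deposited.

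Counts were fitted here over the whole table with edgeR 4.0.16 (R 4.3.3): filterByExpr with a minimum count of 10, TMM, quasi-likelihood test on zone, Benjamini-Hochberg adjustment over 26787 features; the standard error is the difference over the root of F. Calls are from this fit, without pairing. Labels say the base pieces came from the same leaves but do not tie the letters A and B to pools, so the letter enters as a block in a second fit, printed beside calls that it changes and counts that it moves by over 1.5 times. Library depth was 18325106 to 50657759 exon reads. Intervals cover counting error only, since they take the reads of a zone together and leave out the spread between libraries. Reads carry no molecular identifiers. No test was made on ChIP signal, and no sequence is shown because no genome of this build was used here. Only the edgeR fit without pairing was tested on simulated data.

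The models and all lists were chosen with earlier results of these data known. Models are named by rule: the 12 most read, the 8 largest rises and falls among called models, the 6 highest H3K9ac averages with both marks, the 6 most read with neither, up to 5 most read with opposed calls, and those at the limit of the list. Alternatives were other scalings, no count filter, DESeq2 1.42.0, each library left out, stricter thresholds, other rankings and a list of 150.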

Additional observations from a re-analysis of the deposited data

How the results depend on the processing

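Under library totals 30 models rose and 69 fell, beside 9.51% and 31% of all features tested. With no count filter 62 models rose and 45 fell. In the whole set the rising features then went from 3605 to 4807 and the falling ones from 4229 to 6072. Under the replicate block (libraries paired by letter) 124 rose and 108 fell, beside 35.6% and 40.4% of all features, with 20363 features called in all. At an adjusted p under 0.01 no model and no feature was called (0, with 116 models and 11664 features at an unadjusted edgeR p under 0.05). With single libraries left out, 42 to 53 models rose and 16 to 24 fell, while 2624 to 3666 of all features rose and 2584 to 3984 fell. The number of features tested changed with the filter and with the library left out (29110 without maturing zone B). These counts are therefore not shares of a fixed set. Every model called by edgeR without pairing and also called under another setting kept its direction. The 150 most read models held 31 that rose, 17 that fell, 97 with H3K9ac (18 with a lost region), 90 with H3K4me3 (3 with a lost region), 88 with both marks and 51 with neither, the smaller list being its own construction. Ranked by mean RPKM, 16 models had a gained H3K4me3 region, and at a deposited FDR under 0.01, 4 had a lost one; the cause was not tested. Directions of models that were not called turned under library totals for GRMZM2G055165 (-0.54), GRMZM2G167924 (-0.58), GRMZM2G129098 (-0.44), GRMZM2G008645 (-0.53) and GRMZM2G445766 (-0.49), a scaling that shifts the median of all features by -1.14. With single libraries left out, the difference of GRMZM2G055165 ran from -0.079 (without base A) to 1.95 and that of GRMZM2G445766 from -0.32 (without maturing zone A; -0.055 without base B) to 1.92. Counts with both marks or neither under other rankings were chosen after seeing the data. Restricting regions to 1 kb was not run, since the files give no distances. With 2 libraries per zone and no replicates behind the ChIP averages, small differences could not be resolved.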
